A study of Mus musculus with 75 samples.

Results

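The comparison described here asks how the 8 h response to tumor necrosis factor (TNF) differs between fibroblasts without RelA and the same cells with wild-type RelA put back. All cells were mouse embryonic fibroblasts of the genotype p53-/-crel-/-rela-/- on a C57BL/6 background, so both lines lacked p53 and c-Rel as well. One line carried the empty pBABE-puro retrovirus (EV, no RelA) and the other the same retrovirus encoding RelA (RelA-WT). Cells sat overnight in 0.5% serum before TNF was added at 10 ng/ml, per the labels' protocols. The series holds 75 libraries from 11 constructs, and 8 of them form the comparison: EV and RelA-WT at 0 h and at 8 h of TNF, each with 1 library from set 1 (replicate 1) and 1 from set 2 (replicate 2). For every gene the change from 0 h to 8 h in EV was compared with the same change in RelA-WT. No cells kept for 8 h without TNF enter it, so each change includes whatever time alone did. The labels do not say whether a line was a pool or a clone of transduced cells, or whether the sets were separate cultures, so the p-values measure the spread between these libraries.

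RelA is the main activating subunit of NF-kB, a family of dimeric transcription factors. In resting cells NF-kB dimers are held in the cytoplasm by IkB proteins. TNF binding to its receptor starts a kinase cascade that destroys IkB, the dimers enter the nucleus, and there they switch on chemokines, adhesion molecules, survival genes and the genes of their own inhibitors. The same receptor also activates the MAP kinases, which raise transcription factors of the AP-1 family without NF-kB. In fibroblasts lacking RelA, TNF is known for killing cells that RelA-dependent genes would have protected.

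Set 1 had 4663288 to 6847613 counted reads a library and set 2 had 10440202 to 13436163. Levels are given as CPM, read counts scaled to an equal library total, always with set 1 first and set 2 second. Rela, the gene put back, stood at 16.5 and 15.4 CPM in EV at 0 h and 30.8 and 25.3 at 8 h, and at 1144 and 1468 and then 1493 and 1745 in RelA-WT, so the 2 lines did not overlap. Rel and Trp53, whose products all cells lack per their genotype, still had reads in all 8 libraries (Rel 18.5 and 26.9 CPM in EV at 0 h, Trp53 31 and 38.3), and whether these reads lie in the deleted parts was not tested. All 10 fibroblast markers were tested genes, and their summed level was 32790 to 41940 CPM. The markers with 0 reads in the 8 libraries were Adgre1 and Tyrobp (macrophage), Myod1 and Myog (muscle), Rbfox3 and Sox10 (neural), Adipoq (adipocyte) and Krt5 (epithelial). Other members of these lists had reads. Among them were the macrophage markers Lyz2, with 3 to 8 reads a group, and Mrc1, with 5 to 9, and the neural marker Snap25, with 0 to 3. Summed endothelial markers were at 37.0 and 47.2 CPM in EV at 0 h and 179 and 159 at 8 h, and at 49.1 and 56.2 and then 189.8 and 113 in RelA-WT. Only 3 of these 8 markers were tested. Over both sets Pecam1 had 5 reads in EV at 0 h and 6 at 8 h, and 2 and then 1 in RelA-WT. Cdh5 had 8 reads or fewer in each group, and Vwf, Emcn and Cldn5 had 6 or fewer. The other marker lists summed to 3.91 to 8.74 CPM (macrophage), 1.75 to 13 (muscle, highest in EV at 8 h), 145 to 251 (neural, lower at 8 h than at 0 h in both lines) and 14.7 to 32.6 (adipocyte). The part of these cells in the results was not tested. These are bulk libraries, in which fewer cells of a type and less RNA per cell cannot be told apart. Genes with near-identical copies (the Gbp, H2, Ifit, Oas, Tgtp and Serpina3 families) share reads and are uncertain. How strand was handled in counting is not given in the sources used here, so overlapping genes are uncertain too.

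Without RelA, the change over 8 h of TNF was lower for 1079 genes and higher for 1321 than with RelA. Of the 13665 genes tested, 1079 (7.9%) had a lower change in EV than in RelA-WT at an adjusted p under 0.05 and 1321 (9.67%) a higher one, in edgeR's quasi-likelihood test with Benjamini-Hochberg adjustment. The median difference, on the log2 scale, was -1.02 among the lower genes, of which 198 differed by over 2 log2 units, and 0.79 among the higher genes, of which 137 did. Of the lower genes 1078 had the same sign in both sets, and of the higher genes all 1321 did. Of all 13665 genes tested 10598 did. The genes were called from these same sets, so their agreement describes the calls and is not a separate test. With the set as a block in the model, the counts were 2072 lower (15.2%) and 2501 higher (18.3%). Without 1 of the EV or RelA-WT replicates they were 648 lower and 601 higher (without EV replicate 1), 741 and 854 (without EV replicate 2), 836 and 923 (without RelA-WT replicate 1), and 655 and 533 (without RelA-WT replicate 2). Scaling to library totals instead of the trimmed mean of M values moved the split to 1421 lower and 949 higher, with the median of all genes at -0.09 instead of 0.02.

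**Figure D1:**
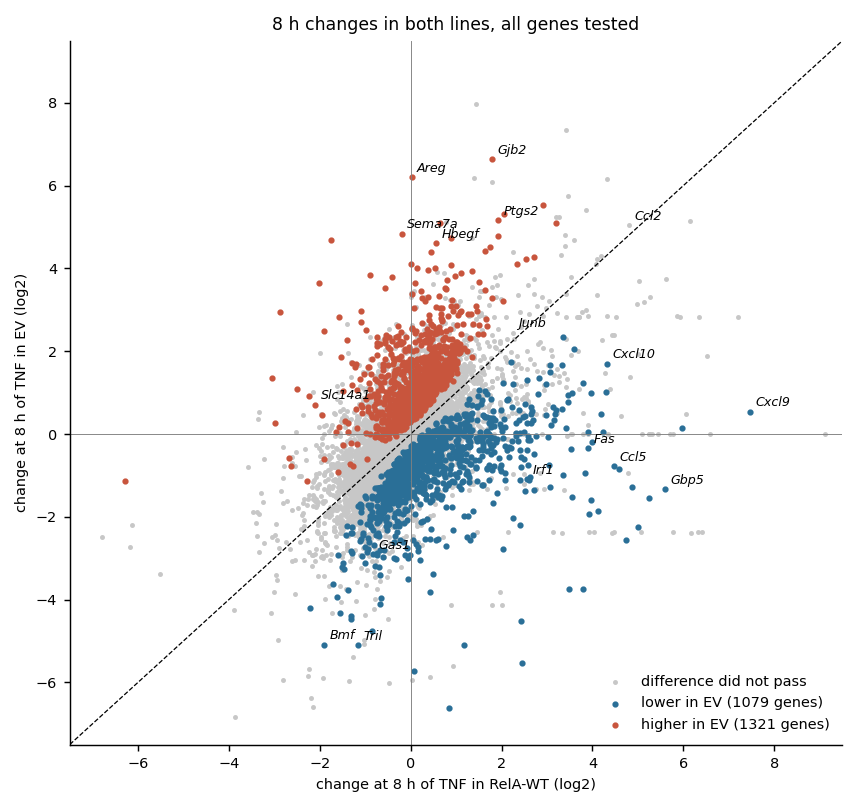
Change from 0 h to 8 h of TNF in RelA-WT (horizontal axis) and in EV (vertical axis), both in log2 units, for the 13665 genes tested, with the dashed line marking equal change. The 1079 lower genes lie below the line and the 1321 higher genes above it, with Gbp5 and Cxcl9 far to the right and Areg and Gjb2 far up.

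**Figure D2:**
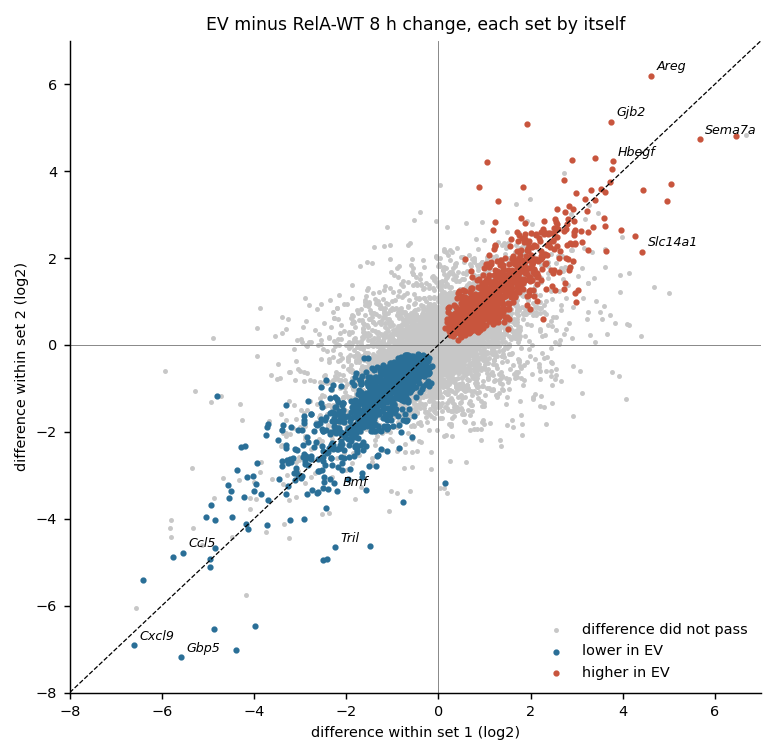
Difference of the 8 h change, EV minus RelA-WT, within set 1 (horizontal axis) and within set 2 (vertical axis), in log2 units, for the same genes. Both colored groups lie in the corners where the sets have the same sign, with 1 lower gene as the exception. The genes were called from these same sets, so this is not a separate test.

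The differences were put together in several ways from the changes of each line by itself. These counts come from the same libraries as the test and describe it only. In EV 3495 genes rose (25.6%) and 3157 fell (23.1%), and in RelA-WT 2161 rose (15.8%) and 1582 fell (11.6%). Of the 1079 lower genes, 264 rose in RelA-WT and did not pass in EV, 112 rose in RelA-WT and fell in EV, and 62 rose in both. A further 452 (41.9%) fell in EV and did not pass in RelA-WT, and 175 fell in both. Of the 1321 higher genes, 714 (54%) rose in EV and did not pass in RelA-WT, 461 (34.9%) rose in both, 47 rose in EV and fell in RelA-WT, and 71 fell in RelA-WT without passing in EV. With the set as a block 4356 genes rose (31.9%) and 4200 fell (30.7%) in EV, and 3155 (23.1%) and 2971 (21.7%) in RelA-WT, and with library totals 4742 fell in EV and 2560 in RelA-WT. Without EV replicate 1 and without EV replicate 2, 1912 and 2068 genes fell in EV. Without RelA-WT replicate 1, 970 rose and 374 fell in RelA-WT, and without RelA-WT replicate 2, 896 fell.

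The 12 genes with the largest lower difference, under the naming rule in the methods, were Gbp5, Cxcl9, Cd74, Ccl5, Tlr2, Bmp3, Fas, Cilp2, Slc2a6, Tril, Chl1 and Icosl. Of these 12, 11 rose in RelA-WT and Tril did not. Gbp5, an interferon-inducible GTPase that helps assemble inflammasomes (mm10, chr3:142493978-142522344), stood at 0.816 and 1.03 CPM in EV at 0 h and 0.728 and 0.208 at 8 h. RelA-WT had 3.66 and 3.29 CPM, then 169 and 166. All 8 h libraries of RelA-WT were far above every other library and the EV libraries stayed near 1 CPM or below. The difference was -6.94 ± 1.14 log2 units (estimate ± SE from the fit, adjusted p = 0.000106), -5.59 in set 1 and -7.19 in set 2. In what follows a value with ± is this difference of changes, EV minus RelA-WT in log2 units with its SE, unless another quantity is named. Cxcl9, a chemokine for T cells, was at 0.68 and 0.396 CPM in EV at 0 h and 1.21 and 0.521 at 8 h. RelA-WT had 1.27 and 1.1 CPM, then 229.7 and 188. Again the 8 h RelA-WT libraries stood alone, with a difference of -6.93 ± 0.78 (adjusted p = 7.11e-07).

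Ccl5, a chemokine for T cells and monocytes, was at 11.2 and 8.4 CPM in EV at 0 h and 5.82 and 5.52 at 8 h. RelA-WT had 24.8 and 20.7 CPM, then 621 and 382. It rose in RelA-WT, fell in EV (-0.77 ± 0.26 log2 units, adjusted p = 0.0182), and differed by -5.24 ± 0.33 (adjusted p = 1.93e-10). Tlr2, a receptor for bacterial lipoproteins, was at 13.7 and 9.11 CPM in EV at 0 h and 4.61 and 3.54 at 8 h. RelA-WT had 21.8 and 12.8 CPM, then 235 and 159, and it too rose in one line and fell in the other, with a difference of -5.05 ± 0.58 (adjusted p = 1.06e-06). Fas, a death receptor, was at 5.31 and 4.36 CPM in EV at 0 h and 4.37 and 3.44 at 8 h. RelA-WT had 10.2 and 7.59 CPM, then 155 and 107. The 0 h libraries of both lines and the 8 h libraries of EV lay within 3.44 to 10.2 CPM, and the difference was -4.24 ± 0.39 (adjusted p = 4.55e-08).

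Cd74, the invariant chain of MHC class II, was at 1.36 and 0.871 CPM in EV at 0 h and 0.243 and 0.521 at 8 h. RelA-WT had 2.7 and 1.33 CPM, then 69.2 and 42.9. It differed by -6.17 ± 0.97 (adjusted p = 6.78e-05). Bmp3, a member of the bone morphogenetic protein family, reached 104 and 73.1 CPM in RelA-WT at 8 h and 3.16 and 4.06 in EV (-4.35 ± 0.61, adjusted p = 1.63e-05). Slc2a6, a sugar transporter, reached 77.3 and 71.7 CPM in RelA-WT against 2.67 and 2.61 in EV (-4.18 ± 0.64, adjusted p = 4.52e-05). For each of these the 8 h RelA-WT libraries were above the other 6 libraries.

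Cilp2, Chl1, Icosl and Tril complete the 12. Cilp2, a matrix protein, reached 38.4 and 66 CPM in RelA-WT against 2.43 and 4.59 in EV (-4.19 ± 0.96, adjusted p = 0.0032). Chl1, a neural adhesion molecule, reached 28.8 and 26.2 CPM in RelA-WT and fell in EV to 1.21 and 0.938 (-3.88 ± 0.59, adjusted p = 4.27e-05). Icosl, a ligand that costimulates T cells, reached 15.5 and 10.4 CPM in RelA-WT against 0.971 and 0.625 in EV (-3.85 ± 1.05, adjusted p = 0.0115). Tril, an accessory protein of Toll-like receptors, went from 18.9 and 13.1 CPM in EV to 0.971 and 0.208, and from 18.8 and 8.46 to 5.3 and 6.32 in RelA-WT, where its change did not pass (difference -3.94 ± 0.94, adjusted p = 0.00429). The calls did not hold without 1 replicate for Cilp2 (adjusted p 0.0681 without EV replicate 2), Tril (adjusted p 0.091 without EV replicate 2 and 0.0637 without RelA-WT replicate 2) and Icosl (adjusted p 0.104 without EV replicate 1, 0.0837 without EV replicate 2 and 0.0516 without RelA-WT replicate 1).

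A pair of genes met the rule except that a group held 3 reads or fewer, and they are given by reads. Ratios from reads, here and below, use library totals without the trimmed-mean factor. Steap4, a metalloreductase of the inflamed state, had 1183 reads in the 8 h RelA-WT libraries together and 1 in those of EV, a ratio of levels of 957 with an exact 95% interval of 171 to 37820. Slc6a4, the serotonin transporter, had 447 against 2, a ratio of 181 with an interval of 49.7 to 1497. These intervals cover counting error only. The call for Steap4 did not hold without EV replicate 2 (adjusted p 0.295).

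**Figure D3:**
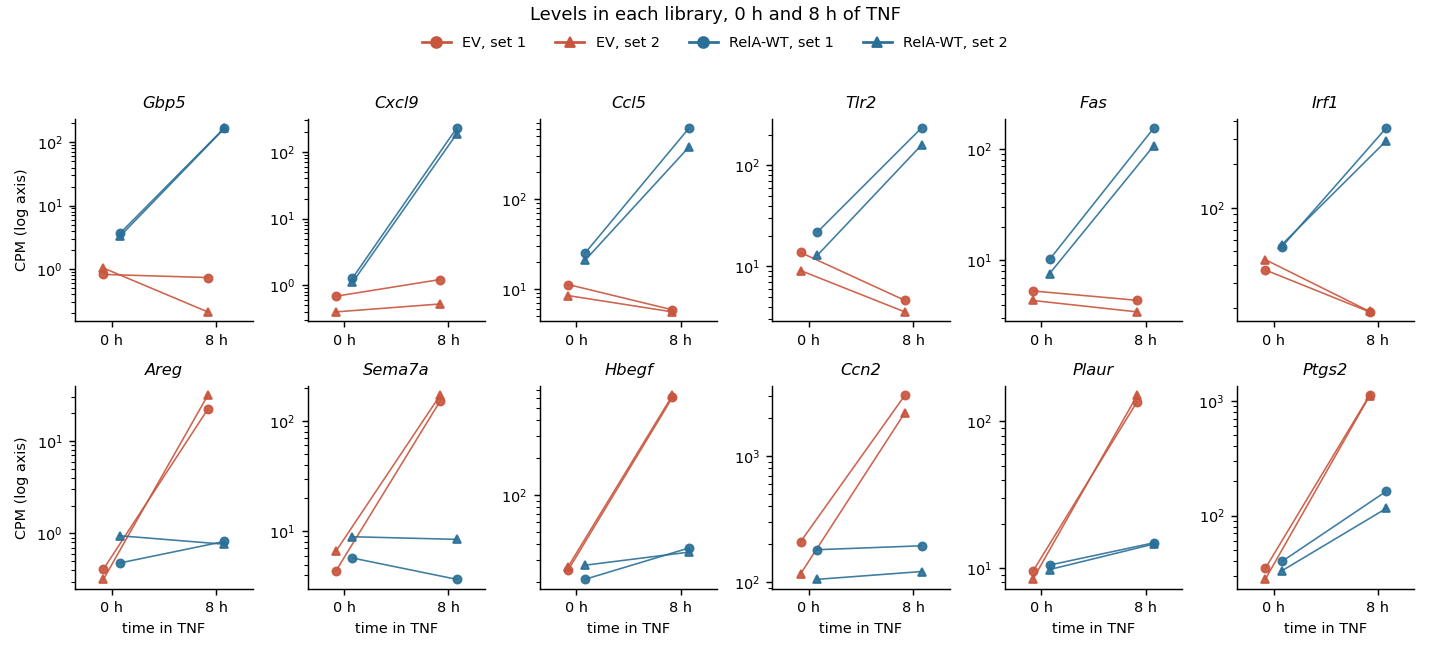
Level in CPM (log axis) at 0 h and 8 h of TNF in each library for 6 genes with a lower and 6 with a higher difference; circles are set 1, triangles set 2, red EV and blue RelA-WT. The top row shows RelA-WT rising while EV stays low, and the bottom row shows EV rising to 22.1 CPM or more while RelA-WT rises less or not at all.

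Promoters of 3 lower genes are shown as examples of genes that rose in RelA-WT and whose windows hold a motif that NF-kB is known to bind, with one that interferon regulatory factors bind as well in Gbp5 and Cxcl10. The windows run from 250 bases before to 50 after the gene's start, from RefSeq on GRCm38.p6, written 5′ to 3′ on the strand of the gene. Capitals mark matches, on either strand, to 4 motifs. The kB motif is GGGA, any 2 bases, T, any base, CC. The interferon-stimulated response element (ISRE) is GAAA, any 2 bases, GAAA. The others are TGANTCA (AP-1) and TGACGTCA (CRE).
Gbp5: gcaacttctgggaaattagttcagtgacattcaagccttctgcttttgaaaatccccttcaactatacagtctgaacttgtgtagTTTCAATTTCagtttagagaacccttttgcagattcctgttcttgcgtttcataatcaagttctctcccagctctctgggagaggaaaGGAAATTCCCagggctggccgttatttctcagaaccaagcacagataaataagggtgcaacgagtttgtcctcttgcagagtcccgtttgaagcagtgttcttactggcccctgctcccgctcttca
Cxcl10: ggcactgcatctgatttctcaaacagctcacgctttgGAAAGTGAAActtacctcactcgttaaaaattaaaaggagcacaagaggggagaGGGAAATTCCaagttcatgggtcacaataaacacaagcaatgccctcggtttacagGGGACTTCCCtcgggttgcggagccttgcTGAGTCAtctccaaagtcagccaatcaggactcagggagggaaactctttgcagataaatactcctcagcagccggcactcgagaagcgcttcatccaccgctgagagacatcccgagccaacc
Tlr2: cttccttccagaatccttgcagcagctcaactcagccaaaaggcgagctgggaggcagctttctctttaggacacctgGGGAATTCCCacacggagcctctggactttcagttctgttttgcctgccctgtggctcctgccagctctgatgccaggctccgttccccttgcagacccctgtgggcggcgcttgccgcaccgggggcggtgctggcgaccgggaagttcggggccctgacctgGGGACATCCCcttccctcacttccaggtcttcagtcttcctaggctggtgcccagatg
The window of Gbp5 (chr3:142496684-142496983, plus strand) holds a kB match starting 77 bases and an ISRE match 165 bases before the start. That of Cxcl10 (chr5:92348840-92349139, minus strand) holds kB matches at 159 and 103 bases, an ISRE match at 213 and an AP-1 match at 74. That of Tlr2 (chr3:83841559-83841858, minus strand) holds kB matches at 172 and 8 bases. A match describes the letters and not a bound factor.

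Windows were found for 829 of the 1079 lower genes (76.8%) and 1023 of the 1321 higher ones (77.4%), and a gene can have more than 1. The ISRE motif was in 5.34% of the 1143 windows of lower genes, 13.7% of the 175 windows of genes lower by over 2 log2 units, 3.09% of the 13381 windows of all genes tested and 2.24% of the 1342 windows of higher genes. It was in 5.13% of the 117 windows of genes higher by over 2 log2 units. The kB motif was in 5.42%, 9.14%, 4.39% and 4.17% of these in the same order, and in 9.4% of windows of genes higher by over 2 log2 units. A broader kB motif that contains it (GGG, any 5 bases, CC) was in 68.9% of windows of lower genes, 71.1% of those of higher genes and 67.1% of all. The AP-1 motif was in 7.09% of windows of lower genes, 6.18% of higher ones and 5.21% of all. It was in 10.9% of windows of genes lower by over 2 log2 units and 12.8% of those higher by over 2 log2 units.

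Feedback genes of NF-kB itself are described before the other lists. Of 17 genes that inhibit, edit or belong to NF-kB, 6 were lower and 2 higher (9 and 2 with the block), and their median difference was -0.48 log2 units against 0.02 over all genes tested. Among all genes tested 7.9% were lower and 9.67% higher, so the higher count lies near its share. The same shares apply to the lists that follow. Nfkbie, which encodes the inhibitor IkB-epsilon, was at 3.4 and 4.99 CPM in EV at 0 h and 7.28 and 9.59 at 8 h. RelA-WT had 8.91 and 8.92 CPM, then 208 and 145. The 8 h RelA-WT libraries were the only ones above 10 CPM and the difference was -3.29 ± 0.41 (adjusted p = 3.17e-06). Tnip1, a partner of the ubiquitin editor A20, was at 42.4 and 46.3 CPM in EV at 0 h and 35.4 and 33.2 at 8 h. RelA-WT had 54.7 and 53.5 CPM, then 261 and 208, so that it rose in RelA-WT and fell in EV (-2.49 ± 0.19, adjusted p = 2.97e-09).

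Nfkbia, which encodes IkB-alpha, went from 29.1 and 26.2 to 90.8 and 84.4 CPM in EV and from 50.3 and 47.6 to 450.3 and 369 in RelA-WT (-1.4 ± 0.20, adjusted p = 2.51e-05). It thus rose without RelA, but less. Tnfaip3, which encodes A20, rose in both lines as well, to 31.8 and 25.1 CPM in EV and 325 and 200.1 in RelA-WT (-1.54 ± 0.48, adjusted p = 0.0267). The precursor subunits Nfkb1 (-0.58 ± 0.16, adjusted p = 0.0123) and Nfkb2 (-0.48 ± 0.14, adjusted p = 0.0164) also rose in both and less in EV. The subunit Relb (-1.25 ± 0.52, adjusted p = 0.105, 0.000517 with the block) and the nuclear IkB protein Bcl3 (-1.41 ± 0.63, 0.133 and 0.000767) passed with the block only.

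The higher members were Nfkbiz, a nuclear IkB protein (36.2 and 57.2 CPM in EV and 22.9 and 27.9 in RelA-WT at 8 h; difference 1.2 ± 0.37, adjusted p = 0.0234), and the deubiquitinase Otud7b (0.68 ± 0.20, adjusted p = 0.0182). Leaving out EV replicate 1, EV replicate 2, RelA-WT replicate 1 and RelA-WT replicate 2 in turn gave 3, 5, 3 and 4 lower and 1, 0, 0 and 0 higher members, and later series of 4 counts follow the same order. Calls were lost on leaving out 1 replicate for Tnfaip3 (adjusted p 0.0649 to 0.183 in the 4 fits without 1 replicate), Nfkb1 (adjusted p 0.127 without EV replicate 1 and 0.0725 without RelA-WT replicate 1), Nfkb2 (adjusted p 0.323 without EV replicate 1, 0.0846 without RelA-WT replicate 1 and 0.0585 without RelA-WT replicate 2), Nfkbiz (adjusted p 0.422 without EV replicate 2, 0.227 without RelA-WT replicate 1 and 0.0549 without RelA-WT replicate 2) and Otud7b (adjusted p 0.0501 to 0.21 in the 4 fits without 1 replicate). With library totals the adjusted p of Nfkbiz was 0.0511.

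Between the TNF receptor and NF-kB, 5 of 24 genes were lower and 1 higher (8 and 2 with the block), with a median of -0.25. The shares over all genes tested were 7.9% lower and 9.67% higher. Birc3, an inhibitor of apoptosis and ubiquitin ligase of the receptor complex, was at 16.5 and 12.4 CPM in EV at 0 h and 26.2 and 29.2 at 8 h. RelA-WT had 18 and 15.8 CPM, then 128 and 107. It rose in both lines and reached its highest levels in RelA-WT (-1.83 ± 0.21, adjusted p = 7.12e-07). Its relative Birc2 (-1.46 ± 0.25, adjusted p = 0.000155) and Ikbke, an IkB kinase relative (-2.09 ± 0.26, adjusted p = 3.08e-06), rose in RelA-WT and fell in EV. The kinase gene Map3k8 rose in RelA-WT (-1.66 ± 0.50, adjusted p = 0.0218), and the receptor Tnfrsf1a differed by -0.28 ± 0.09 (adjusted p = 0.03). Map3k14, which encodes the NIK kinase of the noncanonical pathway, was the higher one, at 79.1 and 58.6 CPM in EV and 28 and 22.8 in RelA-WT at 8 h (1.24 ± 0.40, adjusted p = 0.033, 0.0532 with library totals). Without 1 replicate each, 3, 5, 4 and 3 members were lower and 1, 0, 0 and 0 higher. Without 1 replicate the test no longer passed for Map3k8 (adjusted p 0.275 without EV replicate 1 and 0.174 without RelA-WT replicate 2), Tnfrsf1a (adjusted p 0.189 without EV replicate 1, 0.0672 without RelA-WT replicate 1 and 0.0789 without RelA-WT replicate 2) and Map3k14 (adjusted p 0.165 without EV replicate 2, 0.112 without RelA-WT replicate 1 and 0.187 without RelA-WT replicate 2).

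Against 7.9% lower and 9.67% higher over all genes tested, 5 of 19 chemokines were lower and none higher (6 and 0 with the block). Their median was -1.71. It was -1.92 when genes of an all-zero group took their bound. Besides Cxcl9 and Ccl5 these were Cxcl16, Cxcl10 and Cx3cl1. Cxcl10, an attractant of T cells, was at 15.9 and 19.2 CPM in EV at 0 h and 48.5 and 64.9 at 8 h. RelA-WT had 57.6 and 62.6 CPM, then 1184 and 1235. It rose in both lines, and both EV libraries at 8 h were at about the level of RelA-WT at 0 h (-2.63 ± 0.28, adjusted p = 3.31e-07). Cxcl16 was at 3.13 and 4.12 CPM in EV at 0 h and 3.88 and 4.59 at 8 h. RelA-WT had 7.8 and 7.12 CPM, then 73 and 54.3 (-2.87 ± 0.38, adjusted p = 7.01e-06). Cx3cl1, which also holds leukocytes at the vessel wall, was at 22.3 and 28.4 CPM in EV at 0 h and 58.5 and 85.3 at 8 h. RelA-WT had 30.7 and 22.5 CPM, then 251 and 191 (-1.56 ± 0.28, adjusted p = 0.000248). Cxcl11, whose difference of changes did not pass, had 165 reads in RelA-WT and 1 in EV at 8 h (ratio 133, interval 23.6 to 5302). This ratio compares levels at 8 h, and its interval covers counting error only.

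Other chemokines differed between the lines in level, with no difference of the change that passed. Ccl2, an attractant of monocytes, was at 5.71 and 5.15 CPM in EV at 0 h and 219 and 140.0 at 8 h. RelA-WT had 88.8 and 46.3 CPM, then 2359 and 1391. Every EV library was below the RelA-WT library of its set and time, and the rise in each line passed, with a difference between the rises of 0.24 ± 0.58 (adjusted p = 0.859). Ccl7 (5.44 and 3.01 to 47.1 and 36.2 CPM in EV, 27.4 and 18.4 to 433 and 341 in RelA-WT) differed by -0.75 ± 0.52 (adjusted p = 0.369) and the neutrophil chemokine Cxcl1 by -1.07 ± 0.68 (adjusted p = 0.316).

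Of 13 adhesion genes 2 were lower and 4 higher (3 and 6 with the block), against 7.9% lower and 9.67% higher over all genes tested. Vcam1, which binds leukocyte integrins, was at 128 and 105 CPM in EV at 0 h and 193 and 153 at 8 h. RelA-WT had 259 and 204 CPM, then 2397 and 1835, so that RelA-WT at 8 h stood apart from the other 6 libraries (-2.62 ± 0.24, adjusted p = 3.14e-08). Icam1, its relative, was at 2.04 and 4.2 CPM in EV at 0 h and 7.77 and 16.2 at 8 h. RelA-WT had 11 and 12.5 CPM, then 386 and 378, and its difference of -3.07 ± 1.14 passed with the block only (adjusted p = 0.0646, 0.00521 with the block). Cdh11, a cadherin of mesenchymal cells, fell in EV and rose in RelA-WT (-1.16 ± 0.11, adjusted p = 8.48e-08). Madcam1, whose difference of changes did not pass, had 312 reads in RelA-WT and 1 in EV at 8 h (ratio of levels 252, interval 45.0 to 9997).

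The higher adhesion genes included Cd44, the hyaluronan receptor, which was at 187 and 185 CPM in EV at 0 h and 2244 and 1934 at 8 h. RelA-WT had 213 and 222 CPM, then 767 and 581. It rose in both lines and further in EV (1.86 ± 0.20, adjusted p = 3.55e-07). Pvr, the poliovirus receptor, differed by 1.85 ± 0.45 (adjusted p = 0.0054), while Ncam1 (0.65 ± 0.15, adjusted p = 0.00315) and Cdh2 (0.60 ± 0.15, adjusted p = 0.00764) fell in RelA-WT. With 1 replicate left out in turn, 2, 3, 4 and 3 adhesion genes were higher. Dependent on 1 replicate were the calls for Pvr (adjusted p 0.0542 without EV replicate 1 and 0.13 without RelA-WT replicate 2), Ncam1 (adjusted p 0.0885 without EV replicate 1) and Cdh2 (adjusted p 0.12 without EV replicate 2).

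Complement and acute phase genes were lower in 8 of 20 cases and higher in none (11 and 0 with the block), with a median of -1.81. In the 4 fits lacking 1 replicate, 5, 2, 7 and 4 were lower. Ptx3, a secreted pattern recognition protein, was at 187 and 68 CPM in EV at 0 h and 150.5 and 92.7 at 8 h. RelA-WT had 229.7 and 97 CPM, then 1797 and 828, with set 1 above set 2 in every group (-3.09 ± 0.92, adjusted p = 0.0207). C1s1, a protease of the first complement component, was at 57.7 and 49.3 CPM in EV at 0 h and 36.4 and 25.3 at 8 h. RelA-WT had 97.7 and 58.3 CPM, then 267 and 156 (-2.26 ± 0.38, adjusted p = 0.000161). It fell in EV and rose in RelA-WT. C1ra, its partner protease (-1.75 ± 0.51, adjusted p = 0.0187), and Serping1, the inhibitor of both (-1.18 ± 0.30, adjusted p = 0.00776), rose in RelA-WT. C3, the central complement component, was at 0.544 and 0.0792 CPM in EV at 0 h and 0.485 and 0.313 at 8 h. RelA-WT had 35.3 and 23 CPM, then 479 and 326, and the difference did not pass (-3.29 ± 1.2, adjusted p = 0.059). It was -1.97 ± 2.31 without EV replicate 1 and passed without RelA-WT replicate 1 (adjusted p = 0.0499). Saa3, an acute phase protein, had 2245 reads in RelA-WT and 0 in EV at 8 h, at least 605-fold higher at a floor of 3 reads over the group, but it already had 891 reads against 1 at 0 h. The calls did not hold without 1 replicate for Ptx3 (adjusted p 0.0573 to 0.173 in the 4 fits without 1 replicate), C1ra (adjusted p 0.0761 without EV replicate 1, 0.0869 without EV replicate 2 and 0.0638 without RelA-WT replicate 2) and Serping1 (adjusted p 0.0559 without EV replicate 1, 0.0643 without EV replicate 2 and 0.077 without RelA-WT replicate 2).

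Interferon-response genes were lower in 23 of 44 cases and higher in none (29 and 1 with the block), with a median of -1.13. Of the 44 genes 41 rose in RelA-WT and 10 in EV. Over all genes tested 15.8% rose in RelA-WT and 25.6% in EV, so the count in EV lies near the share of all genes. Irf1, a transcription factor of this response and a known NF-kB target, was at 37 and 43.6 CPM in EV at 0 h and 18.9 and 19.1 at 8 h. RelA-WT had 53.6 and 55.5 CPM, then 358 and 291. It rose in both RelA-WT libraries and fell in both EV libraries (-3.66 ± 0.23, adjusted p = 1.93e-10). Mx1, an antiviral GTPase, was at 3.95 and 7.05 CPM in EV at 0 h and 1.46 and 4.48 at 8 h. RelA-WT had 12.1 and 15.9 CPM, then 115 and 119 (-3.79 ± 0.66, adjusted p = 0.00022). Ifit2, which binds foreign RNA, went to 483 and 371 CPM in RelA-WT against 59.2 and 53.8 in EV (-2.47 ± 0.26, adjusted p = 2.76e-07). Zbp1, a sensor of Z-form nucleic acids, went to 109 and 108 against 4.13 and 4.59 CPM (-2.51 ± 0.55, adjusted p = 0.00208).

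The change of Irf9, another transcription factor of the interferon response, did not pass in either line (difference -0.01 ± 0.21, adjusted p = 0.992). Calls were lost on leaving out 1 replicate for Zbp1 (adjusted p 0.0771 without EV replicate 2). The ISRE motif was in 40.5% of the 37 promoter windows of this list, which was chosen for genes known to carry it.

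The interferon-inducible GTPases, which attack the vacuoles of intracellular pathogens, were lower in 13 of 17 cases and higher in none, with a median of -2.40. All 17 rose in RelA-WT and 4 rose in EV, where the count lies near the share of all genes tested (25.6%). After leaving out 1 replicate in turn, 11, 8, 11 and 9 were lower. Gbp2 was at 36.5 and 39 CPM in EV at 0 h and 70.1 and 79.5 at 8 h. RelA-WT had 139 and 93.2 CPM, then 2061 and 1545, so that it rose in both lines with the 8 h RelA-WT libraries far above the others (-2.98 ± 0.38, adjusted p = 5.16e-06). Gbp6, at 42 and 42 CPM in RelA-WT at 8 h, differed by -2.8 ± 0.85 (adjusted p = 0.0224). Irgm1, which regulates the family, was the counterexample, at 82 and 133 CPM in EV at 0 h and 198 and 229 at 8 h. RelA-WT had 186 and 213 CPM, then 412 and 412, with a difference of -0.06 ± 0.23 (adjusted p = 0.924). Without 1 replicate the test no longer passed for Gbp6 (adjusted p 0.656 without EV replicate 2, 0.0858 without RelA-WT replicate 1 and 0.0589 without RelA-WT replicate 2).

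Genes of MHC class I presentation were lower in 16 of 22 cases and higher in none, with a median of -2.09. Of the 22 genes 21 rose in RelA-WT and 0 rose in EV, against 15.8% and 25.6% of all genes tested. Without 1 replicate each, 13, 10, 12 and 12 were lower. Tap1, a subunit of the peptide transporter, was at 10.5 and 20.8 CPM in EV at 0 h and 7.52 and 15.6 at 8 h. RelA-WT had 39.5 and 48.2 CPM, then 244 and 277 (-2.94 ± 0.60, adjusted p = 0.0011). The other subunit, Tap2, went to 136 and 173 CPM in RelA-WT against 5.1 and 10.9 in EV (-3.0 ± 0.83, adjusted p = 0.0132). Psmb10, an immunoproteasome subunit, was at 24.4 and 19.8 CPM in EV at 0 h and 20.4 and 19.7 at 8 h. RelA-WT had 35.2 and 32 CPM, then 226 and 191 (-2.77 ± 0.29, adjusted p = 2.46e-07).

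Psmb9, another immunoproteasome subunit (-2.82 ± 0.75, adjusted p = 0.0098), the loading factor Tapbpl (-2.8 ± 0.23, adjusted p = 1.26e-08) and Nlrc5, the transactivator of the class I genes (-2.06 ± 0.53, adjusted p = 0.00771), were lower. The heavy chain gene H2-K1 was at 45.6 and 79.7 CPM in EV at 0 h and 65 and 109.8 at 8 h. RelA-WT had 123 and 165 CPM, then 883 and 919 (-2.15 ± 0.71, adjusted p = 0.0357). B2m, the light chain, was at 467.2 and 705 CPM in EV at 0 h and 492 and 669 at 8 h. RelA-WT had 972 and 1121 CPM, then 2009.6 and 2126, and the difference passed with the block only (-1.0 ± 0.44, adjusted p = 0.132, 0.000652 with the block). Dependent on 1 replicate were the calls for Tap2 (adjusted p 0.121 without EV replicate 2, 0.0564 without RelA-WT replicate 1 and 0.077 without RelA-WT replicate 2), Psmb9 (adjusted p 0.255 without EV replicate 2), Nlrc5 (adjusted p 0.0688 without EV replicate 2) and H2-K1 (adjusted p 0.118 to 0.158 in the 4 fits without 1 replicate).

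**Figure D4:**
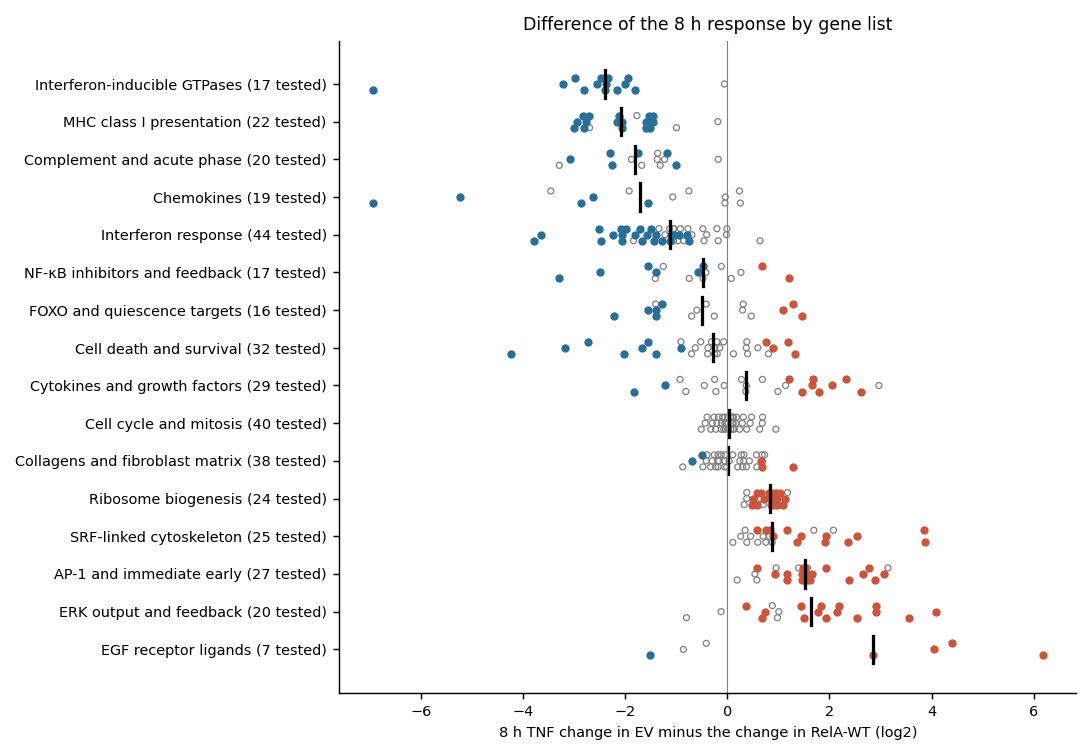
Difference of the 8 h change, EV minus RelA-WT, in log2 units, for each member of selected gene lists with over 3 reads in each group. Filled points passed the test (blue lower, red higher), open points did not, and black bars are the medians of all tested members, from -2.40 for the interferon-inducible GTPases to 2.85 for the EGF receptor ligands.

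Cell death genes were lower in 8 and higher in 4 of 32 cases (13 and 5 with the block). Over all genes tested 7.9% were lower and 9.67% higher, so the higher count lies near its share. The members are described singly, and both killer and survival genes were among them. Lower were Gsdmd, a pore-former of pyroptosis (5.34 and 5.63 CPM in EV and 66.1 and 44.4 in RelA-WT at 8 h; -2.72 ± 0.46, adjusted p = 0.000151), Casp4 (-1.67 ± 0.36, adjusted p = 0.00164), Mlkl, the executor of necroptosis (-1.4 ± 0.17, adjusted p = 3.06e-06), and Bid (-0.92 ± 0.24, adjusted p = 0.00922), besides Fas. Bmf, a BH3-only killer protein, was at 30.3 and 25.4 CPM in EV at 0 h and 0.971 and 0.729 at 8 h. RelA-WT had 27.7 and 20.8 CPM, then 4.69 and 7.61. It fell in both lines and to about 1 CPM in EV (-3.19 ± 0.75, adjusted p = 0.00386).

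Higher in EV were the survival genes Bcl2l1, which encodes BCL-XL, and Mcl1, and the caspase-8 brake Cflar. Bcl2l1 was at 54.4 and 55.9 CPM in EV at 0 h and 125 and 131 at 8 h. RelA-WT had 56 and 54 CPM, then 55.3 and 56.9, and it rose in EV with no change that passed in RelA-WT (difference 1.19 ± 0.14, adjusted p = 2.49e-06). Mcl1 (0.90 ± 0.12, adjusted p = 1.12e-05) and Cflar (0.75 ± 0.17, adjusted p = 0.00341) rose in EV, Cflar in RelA-WT as well. Pmaip1, which encodes the killer protein NOXA, was higher too (1.32 ± 0.37, adjusted p = 0.0151). Sod2, the mitochondrial superoxide dismutase and a known protector, was lower, at 63.6 and 64.6 CPM in EV against 293 and 236 in RelA-WT at 8 h (-1.81 ± 0.25, adjusted p = 1.15e-05). The calls did not hold without 1 replicate for Bid (adjusted p 0.0668 without EV replicate 1 and 0.103 without RelA-WT replicate 1), Bmf (adjusted p 0.0722 without EV replicate 2 and 0.108 without RelA-WT replicate 2) and Pmaip1 (adjusted p 0.182 without EV replicate 2, 0.0672 without RelA-WT replicate 1 and 0.106 without RelA-WT replicate 2).

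Many of the lower genes fell in EV with no change that passed in RelA-WT. Among 16 FOXO and quiescence genes, which are raised when growth factor signalling through AKT is low, 5 were lower and 3 higher (9 and 3 with the block), with a median of -0.51. Of the 16 genes 9 fell in EV and 4 in RelA-WT, against 23.1% and 11.6% of all genes tested. Pik3ip1, an inhibitor of PI3 kinase, was at 59.3 and 42.7 CPM in EV at 0 h and 7.28 and 7.29 at 8 h. RelA-WT had 56.8 and 39.2 CPM, then 30.4 and 33 (-2.22 ± 0.40, adjusted p = 0.000347). Both EV libraries at 8 h were well below all others. Arrdc3, an arrestin relative, was at 67.2 and 65.3 CPM in EV at 0 h and 19.4 and 26.7 at 8 h. RelA-WT had 54.9 and 63.7 CPM, then 59.8 and 64.3 (-1.56 ± 0.24, adjusted p = 5.69e-05), and Ccng2, an atypical cyclin of resting cells, fell in both lines and further in EV (-1.4 ± 0.20, adjusted p = 2.07e-05).

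Gas1, a growth arrest gene and Hedgehog co-receptor outside the lists, was at 562 and 513 CPM in EV at 0 h and 70.9 and 73.3 at 8 h. RelA-WT had 607 and 528 CPM, then 284 and 351 (-2.06 ± 0.19, adjusted p = 3.14e-08). Pdgfrb, a receptor for platelet-derived growth factor, was at 345 and 353 CPM in EV at 0 h and 122 and 133 at 8 h. RelA-WT had 369 and 356 CPM, then 355 and 310.1, and it fell in EV with no change that passed in RelA-WT (-1.32 ± 0.11, adjusted p = 1.76e-08). Pdgfra, its relative, also fell in EV (-0.96 ± 0.33, adjusted p = 0.0457). The fibroblast marker list held both receptors as lower and Thy1 (1.2 ± 0.18, adjusted p = 3.61e-05) and Vim (0.89 ± 0.28, adjusted p = 0.0288, 0.063 with library totals) as higher, and without 1 replicate each 1, 1, 1 and 1 were lower and 2, 1, 1 and 1 higher. Lost in these fits were the calls for Pdgfra (adjusted p 0.0624 to 0.334 in the 4 fits without 1 replicate) and Vim (adjusted p 0.289 without EV replicate 2, 0.266 without RelA-WT replicate 1 and 0.0629 without RelA-WT replicate 2).

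Of 25 patterning transcription factors 3 were lower and 2 higher (8 and 4 with the block), and 10 fell in each line. The lower and higher counts lie near the shares of all genes (7.9% lower, 9.67% higher), and the members are described singly. Of all genes tested 23.1% fell in EV and 11.6% in RelA-WT. Prrx1, a homeobox factor of limb and fibroblast identity, was at 902 and 874 CPM in EV at 0 h and 445 and 486 at 8 h. RelA-WT had 1011 and 929.7 CPM, then 1032 and 981 (-0.98 ± 0.13, adjusted p = 1.13e-05). Osr2, a zinc finger factor, fell in both and further in EV (-1.88 ± 0.49, adjusted p = 0.00799), and Twist1 differed by -0.88 ± 0.27 (adjusted p = 0.0241). With 1 replicate left out in turn, 1, 4, 2 and 1 were lower and 1, 1, 2 and 1 higher. Calls were lost on leaving out 1 replicate for Osr2 (adjusted p 0.0671 without EV replicate 1 and 0.159 without RelA-WT replicate 2) and Twist1 (adjusted p 0.212 without EV replicate 1, 0.0902 without RelA-WT replicate 1 and 0.113 without RelA-WT replicate 2).

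Several further genes of this kind lay outside the naming rule and were chosen after their values were seen. Asap3, an ARF regulator (2.18 and 2.4 CPM in EV at 8 h against 23.5 and 22.7 in RelA-WT; -3.44 ± 0.45, adjusted p = 7.31e-06), Phactr1, an actin and phosphatase binder (-3.24 ± 0.32, adjusted p = 1.14e-07), and the ferritin receptor Scara5 (-2.89 ± 0.59, adjusted p = 0.00102) fell in EV and did not pass in RelA-WT. The same held for Rspo2 (-2.78 ± 0.42, adjusted p = 3.59e-05) and Rspo3 (-2.25 ± 0.44, adjusted p = 0.000802), secreted amplifiers of Wnt signalling. Nrp2, a semaphorin co-receptor, was at 455 and 358 CPM in EV at 0 h and 169 and 154 at 8 h. RelA-WT had 441 and 359.6 CPM, then 951 and 781, and it fell in one line and rose in the other (-2.44 ± 0.26, adjusted p = 3.55e-07). Angpt1, a vessel-stabilizing ligand (-2.54 ± 0.39, adjusted p = 4.33e-05), and Enpp2, which encodes autotaxin (-2.88 ± 0.40, adjusted p = 1.2e-05), also fell in EV and rose in RelA-WT.

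In the other direction, the 12 genes with the largest higher difference were Areg, Sema7a, Gjb2, Sprr1a, Dusp4, Hbegf, Ccn2, Ankrd1, Nes, Dusp5, Fgf5 and Plaur, and all 12 rose in EV. Areg, which encodes the EGF receptor ligand amphiregulin (mm10, chr5:91139599-91148432), was at 0.408 and 0.317 CPM in EV at 0 h and 22.1 and 31.3 at 8 h. RelA-WT had 0.477 and 0.939 CPM, then 0.816 and 0.761. The 8 h EV libraries stood above the other 6, which all lay under 1 CPM (6.18 ± 0.92, adjusted p = 3.59e-05). Hbegf, which encodes another ligand of that receptor, was at 24.8 and 26.4 CPM in EV at 0 h and 612 and 634 at 8 h. RelA-WT had 20.8 and 27.1 CPM, then 37.3 and 34.6, so that it rose steeply in EV and slightly in RelA-WT (4.04 ± 0.28, adjusted p = 6.22e-10). Sema7a, a membrane-anchored semaphorin, was at 4.35 and 6.57 CPM in EV at 0 h and 151 and 170.0 at 8 h. RelA-WT had 5.73 and 8.92 CPM, then 3.67 and 8.45, with no change in RelA-WT that passed (5.04 ± 0.71, adjusted p = 1.65e-05).

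Ccn2, a matricellular protein also called CTGF, was at 208 and 116 CPM in EV at 0 h and 3039 and 2210.0 at 8 h. RelA-WT had 180.4 and 105 CPM, then 194 and 121, and both RelA-WT groups lay near the level of EV at 0 h (3.88 ± 0.56, adjusted p = 2.09e-05). Plaur, the urokinase receptor, was at 9.52 and 8.4 CPM in EV at 0 h and 136 and 150.4 at 8 h. RelA-WT had 10.5 and 9.79 CPM, then 14.9 and 14.6, with the sets close together in each group (3.46 ± 0.23, adjusted p = 5.67e-10). Nes, which encodes the intermediate filament nestin, reached 558 and 536 CPM in EV against 56.7 and 52 in RelA-WT (3.58 ± 0.39, adjusted p = 4.02e-07). Gjb2, a gap junction gene, reached 190.0 and 330.2 CPM against 4.49 and 6.7 (4.86 ± 1.26, adjusted p = 0.00839).

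Fgf5, a fibroblast growth factor, reached 14.8 and 20.2 CPM in EV against 1.43 and 1.37 in RelA-WT (3.5 ± 0.64, adjusted p = 0.000351). Sprr1a, a cornified envelope protein of stressed epithelia, reached 16 and 19.5 CPM against 0.612 and 1.83 (4.21 ± 1.0, adjusted p = 0.0043). Ankrd1, a muscle and stretch-response protein, reached 247 and 111 CPM against 23.3 and 9.74 (3.86 ± 1.21, adjusted p = 0.0275). Without 1 replicate the test no longer passed for Gjb2 (adjusted p 0.779 without RelA-WT replicate 2), Sprr1a (adjusted p 0.176 without RelA-WT replicate 2) and Ankrd1 (adjusted p 0.0643 to 0.197 in the 4 fits without 1 replicate).

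Promoters of 3 higher genes are shown to set them beside the lower ones, in the same form and with the same motifs in capitals.
Areg: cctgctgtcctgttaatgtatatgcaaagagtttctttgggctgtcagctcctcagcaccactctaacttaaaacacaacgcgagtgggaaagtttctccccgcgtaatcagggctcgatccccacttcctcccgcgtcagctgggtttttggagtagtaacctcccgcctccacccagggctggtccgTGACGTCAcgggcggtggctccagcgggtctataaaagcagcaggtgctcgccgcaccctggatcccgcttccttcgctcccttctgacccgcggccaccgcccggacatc
Plaur: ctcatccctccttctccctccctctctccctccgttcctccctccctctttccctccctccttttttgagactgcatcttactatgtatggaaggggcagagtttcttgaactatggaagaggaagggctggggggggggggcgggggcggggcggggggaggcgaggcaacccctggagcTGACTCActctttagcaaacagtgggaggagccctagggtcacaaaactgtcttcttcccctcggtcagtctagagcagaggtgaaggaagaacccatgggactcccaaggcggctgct
Sprr1a: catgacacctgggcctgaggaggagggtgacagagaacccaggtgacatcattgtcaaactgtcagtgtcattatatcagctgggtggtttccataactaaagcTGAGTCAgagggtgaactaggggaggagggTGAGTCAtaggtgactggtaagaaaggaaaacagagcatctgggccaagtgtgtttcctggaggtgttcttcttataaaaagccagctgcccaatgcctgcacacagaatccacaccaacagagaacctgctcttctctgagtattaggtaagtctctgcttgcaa
The window of Areg (chr5:91139349-91139648, plus strand) holds a CRE match starting 61 bases before the start. That of Plaur (chr7:24462233-24462532, plus strand) holds an AP-1 match at 69 bases. That of Sprr1a (chr3:92485832-92486131, minus strand) holds AP-1 matches at 146 and 116 bases. None of these windows matches the ISRE motif or the narrower kB motif that was marked in capitals. The broader kB motif does match in the windows of Areg and Plaur. The narrower kB motif was in 5.42% of windows of all lower genes and 4.17% of those of all higher genes. It was in 9.4% of windows of genes higher by over 2 log2 units and 9.14% of those lower by as much. Lower genes that rose in RelA-WT had it in 7.2% of windows, and higher genes that rose there in 4.51%. Lower genes that fell in EV without passing in RelA-WT had it in 3.85%. Whether these shares differ was not tested. The CRE motif was in 5.13% of windows of genes higher by over 2 log2 units, 3.06% of all higher genes, 2.98% of all genes tested, 1.84% of lower genes and 0% of those lower by over 2 log2 units.

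Of 7 EGF receptor ligands 4 were higher and 1 lower, with a median of 2.85. Ereg, which encodes epiregulin, was at 6.39 and 7.29 CPM in EV at 0 h and 178 and 202 at 8 h. RelA-WT had 8.11 and 6.73 CPM, then 31.6 and 24.9, and it rose in both lines and further in EV (2.85 ± 0.40, adjusted p = 1.68e-05). Tgfa was at 0.272 and 0.871 CPM in EV at 0 h and 1.21 and 6.98 at 8 h. RelA-WT had 0.636 and 0.939 CPM, then 0 and 0.381 (4.4 ± 1.19, adjusted p = 0.011), few reads in RelA-WT. Btc, which encodes betacellulin, was the lower one (-1.51 ± 0.42, adjusted p = 0.0128). The receptor gene Egfr itself was at 239 and 271 CPM in EV at 0 h and 157 and 199 at 8 h. RelA-WT had 237 and 239 CPM, then 229.5 and 229, and the difference did not pass (-0.46 ± 0.18, adjusted p = 0.091, 0.0411 with library totals). Dependent on 1 replicate were the calls for Tgfa (adjusted p 0.145 without EV replicate 2 and 0.0938 without RelA-WT replicate 2) and Btc (adjusted p 0.204 without EV replicate 1 and 0.0937 without RelA-WT replicate 1).

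The AP-1 and immediate early transcription factors, which growth factors and stress kinases switch on within minutes, rose more widely at 8 h without RelA. Of 27 such genes 20 were higher and none lower (26 and 0 with the block), with a median of 1.52, and all 27 rose in EV against 14 in RelA-WT. Of all genes tested 25.6% rose in EV and 15.8% in RelA-WT. Fosl1, which encodes the AP-1 subunit FRA1, was at 5.71 and 8.79 CPM in EV at 0 h and 170.1 and 173 at 8 h. RelA-WT had 10.3 and 12.2 CPM, then 38.6 and 38.2, and it rose in both lines and further in EV (2.78 ± 0.29, adjusted p = 3.31e-07). Fosb was at 5.85 and 5.47 CPM in EV at 0 h and 26.2 and 30.4 at 8 h. RelA-WT had 5.41 and 6.65 CPM, then 3.26 and 3.88, with a rise in EV only passing the test (3.08 ± 0.48, adjusted p = 5.68e-05). Nr4a1, an orphan nuclear receptor, was at 15.8 and 16.8 CPM in EV at 0 h and 99 and 102 at 8 h. RelA-WT had 21.8 and 17.8 CPM, then 14.3 and 17.7 (2.89 ± 0.49, adjusted p = 0.000163).

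Other members followed the same direction. Klf5 (2.65 ± 0.34, adjusted p = 4.14e-06), Jun (1.56 ± 0.35, adjusted p = 0.00247), Myc (1.52 ± 0.33, adjusted p = 0.00184), Egr1 (1.93 ± 0.48, adjusted p = 0.0057) and Fos (1.55 ± 0.44, adjusted p = 0.0154) were higher in EV. Junb was the counterexample, at 31.7 and 32.3 CPM in EV at 0 h and 149 and 199 at 8 h. RelA-WT had 40.6 and 42.4 CPM, then 178 and 218, and it rose in both lines with a difference of 0.19 ± 0.27 (adjusted p = 0.716). In the 4 fits lacking 1 replicate, 17, 14, 16 and 16 members were higher. The calls did not hold without 1 replicate for Egr1 (adjusted p 0.12 without EV replicate 2 and 0.102 without RelA-WT replicate 1) and Fos (adjusted p 0.299 without EV replicate 2 and 0.189 without RelA-WT replicate 1).

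Genes of ERK kinase output and feedback, some of which dampen the kinases, were higher in 15 of 20 cases and lower in none (18 and 1 with the block). Their median was 1.64, and 18 rose in EV and 5 in RelA-WT. Of all genes tested 25.6% rose in EV and 15.8% in RelA-WT. Dusp4, a phosphatase that inactivates ERK in the nucleus, was at 14.3 and 11.5 CPM in EV at 0 h and 184 and 112 at 8 h. RelA-WT had 18.1 and 12.1 CPM, then 10.6 and 9.74, with a rise in EV and no change in RelA-WT that passed (4.08 ± 0.43, adjusted p = 3.31e-07). Dusp5 (100.5 and 111 CPM in EV against 8.36 and 10.6 in RelA-WT at 8 h; 3.56 ± 0.38, adjusted p = 3.55e-07) and Dusp6 (2.91 ± 0.23, adjusted p = 5.57e-09) encode related phosphatases. Errfi1, an inhibitor of the EGF receptor, was at 97.7 and 83.2 CPM in EV at 0 h and 1065 and 1301 at 8 h. RelA-WT had 109 and 107 CPM, then 177 and 202, and it rose in both lines and further in EV (2.9 ± 0.23, adjusted p = 8.02e-09). Spry4, a feedback inhibitor of receptor kinases (2.53 ± 0.25, adjusted p = 1.68e-07), and the ETS factor Etv4 (2.18 ± 0.38, adjusted p = 0.000237) were higher as well. After leaving out 1 replicate in turn, 11, 10, 10 and 11 members were higher.

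Actin cytoskeleton genes known as targets of serum response factor were higher in 13 of 25 cases and lower in none (22 and 0 with the block), with a median of 0.88. In EV 22 rose and in RelA-WT 4. Of all genes tested 25.6% rose in EV and 15.8% in RelA-WT, so the RelA-WT count lies near its share. Tagln, which encodes transgelin, was at 407 and 296 CPM in EV at 0 h and 2156 and 1637 at 8 h. RelA-WT had 335 and 315 CPM, then 517 and 418 (1.91 ± 0.30, adjusted p = 5.68e-05). Thbs1, which encodes thrombospondin, was at 1927 and 1077 CPM in EV at 0 h and 10412 and 6464 at 8 h. RelA-WT had 1957 and 1123 CPM, then 2242 and 1121, with set 1 above set 2 throughout (2.36 ± 0.77, adjusted p = 0.035). Zyx, a focal adhesion protein, reached 1261 and 1009.8 CPM in EV against 529 and 419 in RelA-WT (1.45 ± 0.30, adjusted p = 0.00132). Acta2, smooth muscle actin, did not pass (0.26 ± 0.40, adjusted p = 0.747). Without 1 replicate each, 11, 9, 10 and 9 members were higher. Calls were lost on leaving out 1 replicate for Thbs1 (adjusted p 0.0931 to 0.155 in the 4 fits without 1 replicate).

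Of 22 matrix proteases, genes of the plasminogen system and their inhibitors, 7 were lower and 6 higher, with a median of -0.54. The shares of all genes tested were 7.9% lower and 9.67% higher. Plau, urokinase itself, was at 50.2 and 30.2 CPM in EV at 0 h and 217 and 165 at 8 h. RelA-WT had 54.4 and 38.4 CPM, then 67.9 and 45.9 (1.97 ± 0.59, adjusted p = 0.0203). Timp1, an inhibitor of matrix metalloproteases, reached 458 and 496 CPM in EV against 281 and 249 in RelA-WT (1.13 ± 0.21, adjusted p = 0.000359). Mmp9, a gelatinase and known NF-kB target, went the other way (3.64 and 5.63 against 28.8 and 28.5 CPM; -1.78 ± 0.42, adjusted p = 0.00422). With 1 replicate left out in turn, 2, 1, 2 and 2 were lower and 3, 4, 4 and 3 higher. Without 1 replicate the test no longer passed for Plau (adjusted p 0.0642 to 0.124 in the 4 fits without 1 replicate) and Mmp9 (adjusted p 0.0565 without EV replicate 2).

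Cytokines and growth factors were higher in 8 and lower in 4 of 29 cases, with a median of 0.36. Of all genes tested 9.67% were higher and 7.9% lower. Lif, a cytokine of the interleukin 6 family, was at 3.67 and 2.3 CPM in EV at 0 h and 114 and 150.4 at 8 h. RelA-WT had 4.77 and 3.13 CPM, then 29.6 and 27.5, and it rose in both lines (2.62 ± 0.46, adjusted p = 0.000224). Inhba, the activin A subunit, was at 29.3 and 36.6 CPM in EV at 0 h and 319.9 and 307 at 8 h. RelA-WT had 30.4 and 41.1 CPM, then 71.4 and 65.1 (2.33 ± 0.28, adjusted p = 1.84e-06), and the fibroblast growth factor gene Fgf2 (1.79 ± 0.43, adjusted p = 0.00488) was higher too. Lower were Il1rn, the interleukin 1 receptor antagonist, which fell in EV (19.2 and 25 CPM in EV and 97.5 and 84.1 in RelA-WT at 8 h; -1.82 ± 0.30, adjusted p = 0.000129), and Vegfc, a lymphatic growth factor, which rose in RelA-WT (-1.22 ± 0.28, adjusted p = 0.00328). Tnfsf10, which encodes the death ligand TRAIL, had 102 reads in RelA-WT and 0 in EV at 8 h (at least 27.5-fold higher in RelA-WT). In the 4 fits lacking 1 replicate, 4, 1, 4 and 3 were lower and 7, 5, 6 and 4 higher. Dependent on 1 replicate were the calls for Fgf2 (adjusted p 0.0696 without EV replicate 2 and 0.0598 without RelA-WT replicate 2) and Vegfc (adjusted p 0.0542 without EV replicate 2).

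Ptgs2, which encodes cyclooxygenase 2, was at 34.6 and 27.8 CPM in EV at 0 h and 1114 and 1104 at 8 h. RelA-WT had 39.8 and 33 CPM, then 163 and 115. It rose in both lines and further in EV, whose 8 h libraries stood apart (3.23 ± 0.25, adjusted p = 5.66e-09). The next enzyme of that route, the prostaglandin E synthase Ptges, was lower (-1.72 ± 0.46, adjusted p = 0.0102) and the receptor Ptger4 higher (1.96 ± 0.40, adjusted p = 0.00114). Slc7a2, an arginine transporter, rose in RelA-WT and fell in EV (43.4 and 53.4 CPM in EV and 369.7 and 287 in RelA-WT at 8 h; -2.53 ± 0.30, adjusted p = 1.77e-06). Over 13 genes of prostaglandin and arginine metabolism 2 were lower and 5 higher, with 1 lower without EV replicate 1. The calls did not hold without 1 replicate for Ptges (adjusted p 0.155 without EV replicate 1).

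Of 11 keratin and epithelial junction genes 4 were higher and none lower (8 and 0 with the block), with a median of 1.63. Krt19, a keratin of simple epithelia, was at 14.1 and 18.9 CPM in EV at 0 h and 82.3 and 93.6 at 8 h. RelA-WT had 12.7 and 21.1 CPM, then 12.2 and 11.6 (2.93 ± 0.41, adjusted p = 1.53e-05), so that the 8 h EV libraries stood apart. The cell type markers of epithelia, 11 of the 17 genes listed and 6 of them tested, summed to 28.1 and 35.1 CPM in EV at 0 h and 115 and 142 at 8 h, against 29.7 and 35.9 and then 34.9 and 31.8 in RelA-WT. Epcam, a defining epithelial marker, stayed at 1.77 CPM or less in the 8 libraries and Krt5 at 0 reads, and Krt19 made up most of the sum in EV at 8 h. After leaving out 1 replicate in turn, 4, 2, 3 and 3 members of the list were higher.

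Nucleolar and ribosome assembly genes rose in both lines and further without RelA. Of 24, 17 were higher and none lower (23 and 0 with the block), with a median of 0.83. In EV 24 rose and in RelA-WT 22, against 25.6% and 15.8% of all genes tested. Polr1b, a subunit of RNA polymerase I, was at 23.3 and 26.4 CPM in EV at 0 h and 113 and 103 at 8 h. RelA-WT had 23.7 and 26.7 CPM, then 49.99 and 49.9 (1.13 ± 0.14, adjusted p = 2.92e-06). Nop58 (0.98 ± 0.14, adjusted p = 1.53e-05), Nop56 (1.1 ± 0.25, adjusted p = 0.00333) and the helicase Ddx21 (1.02 ± 0.29, adjusted p = 0.0162) were higher in the same way. Without 1 replicate each, 6, 15, 17 and 5 were higher, so that the count fell without EV replicate 1 and without RelA-WT replicate 2. Calls were lost on leaving out 1 replicate for Nop56 (adjusted p 0.0868 without EV replicate 1 and 0.133 without RelA-WT replicate 2) and Ddx21 (adjusted p 0.183 without EV replicate 1 and 0.313 without RelA-WT replicate 2).

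A small share of the higher genes differed through a fall in RelA-WT. Sox9, a transcription factor of cartilage and progenitors, was at 57.7 and 73.2 CPM in EV at 0 h and 82.8 and 53.7 at 8 h. RelA-WT had 58.2 and 75.5 CPM, then 22 and 29.2, and it fell in RelA-WT with no change in EV that passed (1.41 ± 0.26, adjusted p = 0.000424). Id1, an inhibitor of differentiation factors, fell in RelA-WT (1.57 ± 0.37, adjusted p = 0.00425). The Wnt antagonist Dkk2 was at 18.9 and 22.4 CPM in EV at 0 h and 65.5 and 67.5 at 8 h. RelA-WT had 19.4 and 17.5 CPM, then 10.8 and 12.9, and it rose in EV and fell in RelA-WT (2.29 ± 0.26, adjusted p = 9.92e-07). The following were chosen after their values were seen. The thrombin receptor F2r (626 and 489.7 CPM in EV and 129.6 and 121 in RelA-WT at 8 h; 2.14 ± 0.30, adjusted p = 1.57e-05), the adhesion molecules Mcam (2.55 ± 0.39, adjusted p = 4.17e-05) and Nrcam (2.9 ± 0.54, adjusted p = 0.000416) went the same 2 ways as Dkk2. The urea transporter Slc14a1 fell in RelA-WT, from 14.2 and 10.02 to 0.816 and 3.88 CPM (2.81 ± 0.46, adjusted p = 0.000102). Without 1 replicate the test no longer passed for Id1 (adjusted p 0.0686 without EV replicate 2 and 0.0627 without RelA-WT replicate 2).

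Other lists had few called members, against 7.9% lower and 9.67% higher over all genes tested. None of 40 cell cycle genes was lower or higher in edgeR's test or in DESeq2. With the block 1 and 5 were, and at an unadjusted p under 0.05 in edgeR's test 0 and 1. Their median was 0.04, while 17 of them fell in EV and 12 in RelA-WT, against 23.1% and 11.6% of all genes tested. Of 38 collagen and matrix genes 2 were lower and 3 higher (6 and 11 with the block), with a median of 0.01, and Tnc, which encodes tenascin C, was the highest (1.28 ± 0.40, adjusted p = 0.0275). With 1 replicate left out in turn, 1, 2, 1 and 1 matrix genes were lower and 0, 1, 1 and 0 higher. Dependent on 1 replicate were the calls for Tnc (adjusted p 0.0579 to 0.222 in the 4 fits without 1 replicate).

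Levels before TNF were compared because a different start can change a response. At 0 h 77 genes (0.563%) were lower in EV than in RelA-WT and none was higher in edgeR's test; at an unadjusted p under 0.05 the counts were 358 and 106, and DESeq2 called 101 and 1. With the block they were 147 (1.08%) and 8 (0.0585%). In the 4 fits lacking 1 replicate, 18, 69, 21 and 40 were lower. Among the genes described above, Cxcl10 (-1.77 ± 0.20 log2 units, adjusted p = 2.11e-05), Ccl2 (-3.63 ± 0.46, 9.74e-05), Gbp2 (-1.61 ± 0.27, 0.00286), Vcam1 (-0.99 ± 0.17, 0.00261), Nfkbia (-0.82 ± 0.15, 0.00468) and C3 (-6.76 ± 0.46, 1.68e-09) were lower in EV already at rest. The median resting difference was -1.0 over the 44 interferon-response genes, -1.52 over the 17 GTPases and -0.89 over the 22 class I genes, against -0.01 over all genes. It was -0.19 for the AP-1 list and -0.11 for the ERK list.

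The difference at 8 h was also tested against that at 3 h, in 1 contrast in which the shared 0 h libraries cancel. It was lower at 8 h than at 3 h for 788 genes (5.77%) and higher for 1197 (8.76%), and with the block for 1696 (12.4%) and 2376 (17.4%). At 3 h by itself the difference was lower for 383 genes (2.8%) and higher for 120 (0.878%). After leaving out 1 replicate in turn, 385, 517, 494 and 381 were lower and 484, 694, 686 and 499 higher, and with library totals 1342 and 714. Of the NF-kB feedback list 7 of 17 rose in this sense: Nfkbie, for example, differed by -4.78 ± 0.42 at 3 h and -3.29 ± 0.41 at 8 h, a shift of 1.49 ± 0.38 (adjusted p = 0.00951). Of the MHC class I list 7 of 22 moved lower and none higher, and Psmb10 went from -1.89 ± 0.28 to -2.77 ± 0.29 (-0.88 ± 0.28, adjusted p = 0.0389).

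Several of the genes higher at 8 h gained their difference after 3 h. Ptgs2 stood at 69.1 and 96.1 CPM in EV and 84.2 and 81.2 in RelA-WT at 3 h, where the difference was 0.23 ± 0.25, and shifted by 3.0 ± 0.25 from then to 8 h (adjusted p = 2.15e-08). Plaur (3.0 ± 0.22, adjusted p = 6.63e-09) and Areg (3.65 ± 0.86, adjusted p = 0.00459) shifted in the same way. The shift of Nr4a1 did not pass, with 2.88 ± 0.50 at 3 h and 2.89 ± 0.49 at 8 h (0.00 ± 0.52, adjusted p = 0.999). Of the ribosome biogenesis list 16 of 24 shifted higher, against 8.76% of all genes tested. The AP-1 list had a median difference of 0.83 at 3 h and 1.52 at 8 h, and 8 of its 27 genes shifted higher. For the ERK list the medians were 0.88 and 1.64, and 9 of 20 genes shifted higher. Of the late falls in EV, Gas1 was at 468 and 441 CPM in EV and 311 and 297 in RelA-WT at 3 h before reaching 70.9 and 73.3 and 284 and 351 at 8 h (-2.72 ± 0.19, adjusted p = 1.74e-09), and Bmf shifted by -3.5 ± 0.77 (adjusted p = 0.00279).

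**Figure D5:**
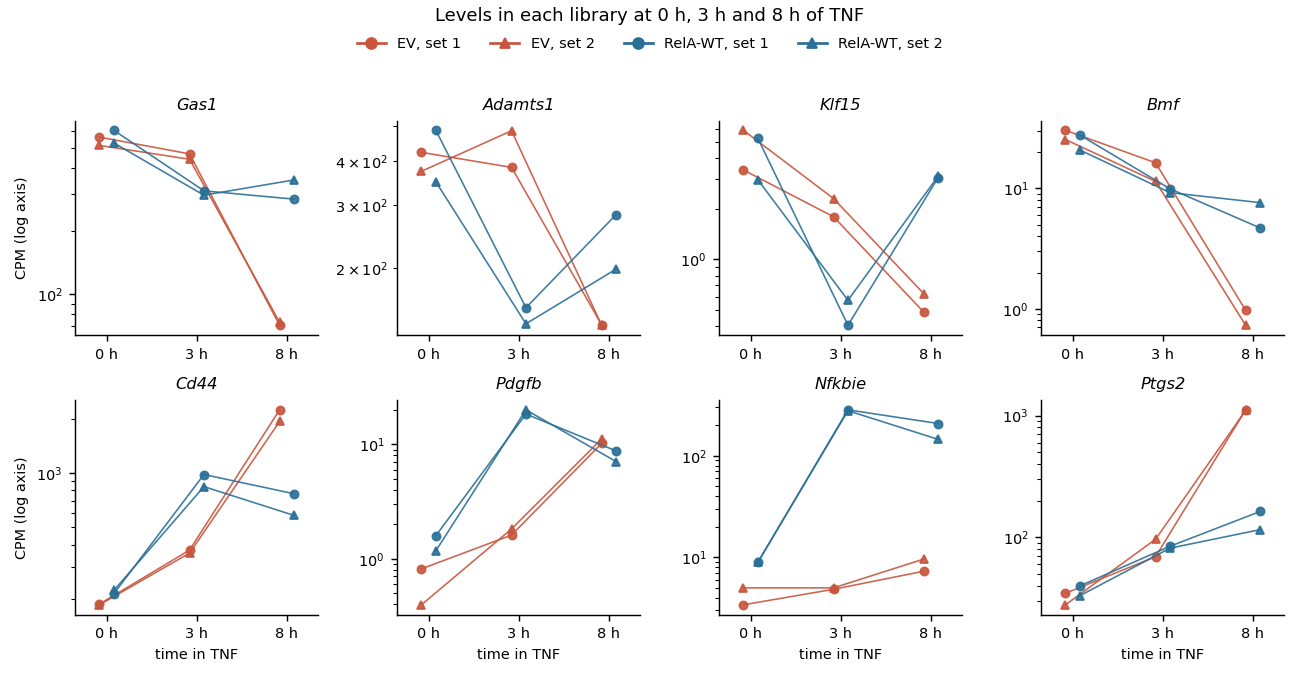
Level in CPM (log axis) at 0 h, 3 h and 8 h of TNF in each library for 8 genes; circles are set 1, triangles set 2, red EV and blue RelA-WT. Gas1, Adamts1, Klf15 and Bmf fall in EV between 3 h and 8 h, Cd44, Pdgfb and Ptgs2 rise late in EV, and Nfkbie stays under 10 CPM in EV at all 3 times.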

How the data were processed

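RNA sequencing read counts per gene were deposited by the authors, who, per the submitters' processing notes, used cutadapt 1.9.1, STAR, featureCounts 1.5.0 and DESeq2 with mm10; the strand setting is not given in the sources used here. Libraries came from a stranded mRNA kit with 12 PCR cycles and 50-base single ends, per the labels' protocols. From these counts, CPM were computed in edgeR 4.0.16 under R 4.3.3 with trimmed-mean (TMM) scaling factors. The quasi-likelihood test (robust, filterByExpr, 13665 of 45706 gene entries) was fitted to the 40 libraries of the 4 constructs with 2 replicates, with 1 mean per construct and time. This leaves 20 residual degrees of freedom at a common dispersion of 0.0224, so the spread is borrowed from all 4 constructs. P-values were adjusted by Benjamini-Hochberg over all genes tested, at a threshold of 0.05. Within-set differences used log2 CPM with a prior count of 2.

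Named genes were the 12 with the largest called difference in each direction, the same sign in both sets, at least 10 CPM in 1 group and over 3 reads in each, up to 5 that met this except for the reads, and up to 4 called members of each list in each direction, with others from the lists. Gene models were passed over. The members and lists were chosen with earlier results of these data known. Same-numbered replicates belong to the same set, and their deviations from the group means correlated at 0.422 to 0.592 in the 6 pairs of groups. Libraries of a set thus share deviations. Paired samples and a difference between whole sets, such as in read depth, cannot be told apart here. The main test leaves the set out of the model, and fits with the set as a block were run beside it. DESeq2 1.42.0 (Wald test), other scalings, no filter and fits without 1 replicate were alternatives. The test was tried on simulated data. Sequences are RefSeq promoters on GRCm38.p6, and the narrower kB motif was added after the data were seen. Libraries of the constructs outside the comparison entered only the estimate of the spread or were not used. A few genes that the naming rule picked are not reported here.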

Additional observations from a re-analysis of the deposited data

Results flagged for a closer look

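The difference between EV and RelA-WT was itself different at 8 h and at 3 h for 788 genes in the lower and 1197 in the higher direction, by the contrast of both times in edgeR's fit. In 17 genes the difference passed at both times with opposite signs. The values that follow are shifts of the difference from 3 h to 8 h on the log2 scale. Lower at 8 h and higher at 3 h were Gas1 (-2.72), Arhgap20 (-2.46), Adamts1 (-2.35), Kat6b (-1.91), Ephb3 (-1.44), Gpsm2 (-1.30), Tnrc18 (-1.19), Slc1a4 (-1.05) and Sec14l1 (-0.84). Higher at 8 h and lower at 3 h were Ube2e3 (0.85), Top1 (0.91), Sbno2 (1.07), Phldb1 (1.34), Fam208b (1.36), St3gal1 (1.72), Cd44 (2.95) and Pdgfb (3.91).

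Adamts1, a secreted matrix protease, was at 383 and 485 CPM in EV and 155 and 140.1 in RelA-WT at 3 h, and at 139 and 139 and 283 and 199 at 8 h, so the order of the lines turned over. The difference was 1.63 ± 0.24 at 3 h and -0.72 ± 0.24 at 8 h. Pdgfb, a platelet-derived growth factor chain, was at 1.61 and 1.82 CPM in EV and 18.4 and 20.04 in RelA-WT at 3 h, and at 10.2 and 11.2 and 8.77 and 7.08 at 8 h. Its difference was -2.23 ± 0.61 at 3 h and 1.69 ± 0.56 at 8 h. The 8 h call did not hold without 1 replicate for Adamts1 (adjusted p 0.0515 to 0.231 in the 4 fits without 1 replicate) and Pdgfb (adjusted p 0.393 without EV replicate 2, 0.122 without RelA-WT replicate 1 and 0.148 without RelA-WT replicate 2).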

How the results depend on the processing

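Of the 2400 genes called, 2400 were called again with the replicate block, 2370 with RLE size factors, 2028 with library totals, 1669 with no filter, 2197 with DESeq2, 1295 with the 8 libraries alone, and 1148 to 1660 without 1 replicate. With the block, which pairs the sets, 2072 genes were lower and 2501 higher; 2971 fell in RelA-WT, 147 were lower and 8 higher at rest, and 1696 and 2376 shifted between 3 h and 8 h. Library totals gave 4742 falls in EV, 2560 in RelA-WT, and 1342 and 714 late shifts. A fit to the EV and RelA-WT libraries of the times compared, which has few degrees of freedom, gave 648 and 703, with 998 falls in RelA-WT, 17 lower at rest, and 415 and 778 late shifts. With no filter 158 were lower and 4 higher at rest, and DESeq2 called 1 higher. Without 1 replicate the difference had 648 to 836 lower and 533 to 923 higher genes, EV 1912 to 2068 falls and 2401 to 2544 rises, RelA-WT 374 to 896 and 970 to 1520, rest 18 to 69 and 0, and the late shift 381 to 517 and 484 to 694. In these fits the lone remaining library is assumed to vary like the other groups. Where a cause is not named, the cause was not tested.

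Of 183 genes followed, 166 passed and 105 of them passed in each fit without 1 replicate. Signs turned in 5 genes that did not pass: Rel ranged from -0.51 to 0.12, Ccl2 from -0.051 to 0.41, Irf9 from -0.19 to 0.18, Irgm1 from -0.27 to 0.18 and Junb from -0.062 to 0.36. Libraries of set 1 held fewer reads, so genes under about 1 CPM rest on few reads there.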

Other observations

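Clock genes differed in both directions. Values with ± are again differences of the 8 h changes, EV minus RelA-WT in log2 units with SE, with adjusted p from edgeR. Of 16 clock and glucocorticoid-responsive genes 6 were lower and 4 higher (6 and 5 with the block), against 7.9% and 9.67% of all genes tested. Dbp, a clock output factor, was at 19.5 and 34 CPM in EV at 0 h and 1.7 and 1.77 at 8 h. RelA-WT had 18.5 and 28.5 CPM, then 5.92 and 8.9 (-2.31 ± 0.66, adjusted p = 0.015). The clock repressor Per3 was at 27.1 and 25.3 CPM in EV at 0 h and 3.88 and 3.54 at 8 h. RelA-WT had 25.3 and 20.04 CPM, then 8.57 and 9.36 (-1.51 ± 0.25, adjusted p = 0.000115); both fell in both lines and further in EV. Klf15, a glucocorticoid target, fell in EV (-2.64 ± 0.61, adjusted p = 0.00321). Arntl, the clock activator BMAL1, rose in EV (1.3 ± 0.33, adjusted p = 0.00681), as did Cry1 (1.06 ± 0.26, adjusted p = 0.00463) and the kinase Sgk1 (316 and 223 CPM in EV and 89.8 and 64.5 in RelA-WT at 8 h; 1.85 ± 0.35, adjusted p = 0.000466). Without 1 replicate each, 4, 3, 6 and 2 were lower and 3, 4, 4 and 2 higher. The calls did not hold without 1 replicate for Dbp (adjusted p 0.194 without EV replicate 2 and 0.0946 without RelA-WT replicate 2), Klf15 (adjusted p 0.0872 without EV replicate 2 and 0.0558 without RelA-WT replicate 2), Arntl (adjusted p 0.0699 without EV replicate 1 and 0.0644 without RelA-WT replicate 2) and Cry1 (adjusted p 0.105 without RelA-WT replicate 2).

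Among stress genes, Trib3, a pseudokinase of the ATF4 response (35.7 and 38.2 CPM in EV and 80.8 and 88.2 in RelA-WT at 8 h; -1.18 ± 0.17, adjusted p = 2.07e-05), and Ddit3, which encodes CHOP (-0.72 ± 0.14, adjusted p = 0.000492), fell in EV, within a list of 23 with 3 lower and 4 higher (7 and 4 with the block). Without 1 replicate each, 1, 1, 2 and 1 of that list were higher. Hsp90aa1 was the highest of 3 higher heat shock genes of 16 (1.03 ± 0.17, adjusted p = 0.000116). Over all genes tested 7.9% were lower and 9.67% higher. The counts of p53 targets given below lie near these shares, and the members of the stress lists are described singly. Hmox1, heme oxygenase 1 (362 and 410.3 CPM in EV and 169.5 and 157 in RelA-WT at 8 h; 1.27 ± 0.22, adjusted p = 0.000194), and Srxn1, sulfiredoxin (1.18 ± 0.25, adjusted p = 0.00131), rose in EV, while Fth1, ferritin heavy chain (-0.96 ± 0.20, adjusted p = 0.00152), fell there and rose in RelA-WT. Of 20 genes known as p53 targets, in cells without p53, 2 were lower, Trp53inp1 (-2.11 ± 0.33, adjusted p = 5.91e-05) and Sesn1 (-1.39 ± 0.24, adjusted p = 0.000203), and 2 higher (5 and 9 with the block, and 2, 4, 3 and 1 higher without 1 replicate each), among them the kinase Plk3 (2.04 ± 0.46, adjusted p = 0.00296). Lost in such a fit was the call for Plk3 (adjusted p 0.0873 without RelA-WT replicate 2).

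In signalling and metabolic lists few members passed, and most of their shares lie near those of all genes (7.9% lower, 9.67% higher). Bmp4 fell in EV (16 and 19.9 CPM in EV and 41.8 and 37.4 in RelA-WT at 8 h; -1.26 ± 0.18, adjusted p = 2.47e-05), as did the BMP inhibitor Smad6 (-1.4 ± 0.28, adjusted p = 0.000928). Their list of 22 had 2 lower and 5 higher (6 and 9 with the block), with 2, 2, 4 and 1 higher without 1 replicate each. Of 18 Notch and Wnt targets 2 were lower and 2 higher (5 and 6 with the block), with 1, 1, 1 and 1 lower and 2, 1, 1 and 1 higher in the fits without 1 replicate. Of 24 cholesterol genes 3 were lower (7 with the block, 2, 1, 0 and 2 without 1 replicate each), and of 21 autophagy and lysosome genes 3 were lower (9 with the block). Of 25 glycolysis and hypoxia genes 2 were lower and 2 higher (3 and 9 with the block), with 0, 1, 0 and 1 lower and 0, 2, 2 and 0 higher in the fits without 1 replicate.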
